A study of Mus musculus with 10 samples.

Results

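The genes described here are the 10 mouse genes of the classical MHC class I antigen presentation pathway that were selected by symbol: B2m, H2-K1, H2-D1, Tap1, Tap2, Tapbp, Psmb8, Psmb9, Psmb10 and Nlrc5. They were found by the Ensembl identifier of each symbol in a table of 20206 genes, and each symbol had 1 row, so that all 10 of 10 were present. The values came from RNA sequencing of 10 embryonic stem cell (ESC) lines, each derived from a wild-type C57BL/6 blastocyst and labelled male. Of these, 5 lines (LPD lines 1, 4, 6, 20 and 40) came from mothers fed a low protein diet with 9% casein, and 5 lines (NPD lines 8, 15, 21, 36 and 51) from mothers fed a normal protein diet with 18% casein. The mothers were 7 to 9 weeks old and received the diet until embryonic day 3.5, when the blastocysts were collected. The study's methods state that the lines came from different mothers, that they were derived on a layer of mouse embryonic fibroblasts and that RNA was taken from fibroblast-free cultures. Each line was sequenced once, so the line was the replicate and n = 5 per diet throughout.

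MHC class I molecules carry short peptides from inside the cell to its surface, where CD8+ T cells and natural killer cells inspect them. The proteasome cuts cytosolic proteins, and in cells exposed to interferon its constitutive catalytic subunits are replaced by the immunoproteasome subunits. The peptides are pumped into the endoplasmic reticulum by the TAP transporter and loaded, with the help of tapasin, onto a heavy chain paired with beta-2-microglobulin. NLRC5 is the transactivator that acts on the promoters of this pathway. Undifferentiated ESCs are known for low surface class I and for a weak response to interferon.

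In GENCODE on GRCm38, B2m lies on chromosome 2, and 7 of the 10 genes lie within the MHC on chromosome 17, between positions 33915899 and 35267499. Psmb10 and Nlrc5 lie on chromosome 8. RefSeq promoters on GRCm38.p6 were matched for 8 of the 10 genes, and the 250 bases before the start site were searched on both strands. The promoters of B2m and H2-K1 are shown whole because they belong to the light chain and to the more abundant heavy chain. Capitals mark every match to GAANNGAAA or GAAANNGAA, which are short and long spacings of an interferon-stimulated response element core, to the kappaB-like GGNNTTNCC, to the CRE core TGACG, to CCAAT and to TATAAA, including overlapping matches.
B2m, chr2:122147437-122147686, plus strand: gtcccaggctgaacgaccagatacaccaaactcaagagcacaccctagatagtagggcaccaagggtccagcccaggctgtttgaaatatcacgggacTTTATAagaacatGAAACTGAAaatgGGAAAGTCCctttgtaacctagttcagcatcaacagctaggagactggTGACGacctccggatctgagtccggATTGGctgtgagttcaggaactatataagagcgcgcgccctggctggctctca
H2-K1, chr17:34000348-34000597, minus strand: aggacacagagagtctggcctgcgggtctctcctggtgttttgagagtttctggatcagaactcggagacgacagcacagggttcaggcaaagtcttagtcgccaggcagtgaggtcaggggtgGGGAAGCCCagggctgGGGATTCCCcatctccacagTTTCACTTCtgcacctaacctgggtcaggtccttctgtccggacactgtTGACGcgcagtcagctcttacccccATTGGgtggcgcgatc

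The promoters of the 2 heavy chain genes share the kappaB-like match followed by the response element. These 30 bases are shown because they lie in both heavy chain promoters, with both matches in capitals.
H2-K1, chr17:34000428-34000457, minus strand: GGGATTCCCcatctccacagTTTCACTTCt
H2-D1, chr17:35262924-35262953, plus strand: GGGATTCCCcatctcctcagTTTCACTTCt
Of the 30 bases 29 were identical, and the difference was A17T, counted from 1 at the 5′ end with the H2-K1 base first. GAANNGAAA was found in the promoters of H2-K1 and H2-D1, which is 2 of 8, against 6.31% of 32851 RefSeq promoter windows of this length. GAAANNGAA was found in B2m only, 1 of 8, against 7.13% of all windows. GGNNTTNCC was found in these 3 promoters, 3 of 8, against 13.5%. TGACG was found in 5 of 8 against 17.8%, CCAAT in 6 of 8 against 33.8% and TATAAA in 3 of 8 against 12.4%. The palindromic TTCNNNGAA, a GAS-like motif, was found in Psmb8 alone against 7.02% of all windows. Tap1 and Psmb9 start 226 bp apart on opposite strands, so their windows overlap, and their TGACG matches (chr17:34187470-34187474) and CCAAT matches (chr17:34187334-34187338) are the same 2 sites, each counted in both promoters. The motifs were chosen with these promoter sequences in view, so the shares beside all windows are a description and test no excess. The 8 promoters are also not independent, given the overlap of Tap1 and Psmb9 and the likeness of the heavy chain promoters. These matches are letters in a window, and binding was not measured.

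Depth differed between the diets, and it sets the precision of the low genes. As read equivalents, the NPD lines held about 20396400 to 23167900 and the LPD lines about 5846660 to 24111800, with LPD line 4 the shallowest. The ESC markers summed to between 97174 and 132740 over the 10 lines, so the defining genes of the labelled cell type were abundant in each. Fibroblast markers, 16 in number, summed to 1261 to 5037 in LPD and 1132 to 8502 in NPD lines, highest in NPD line 15, LPD line 6 and NPD line 8, with Lum at 0 in at least 5 lines. Primitive endoderm markers, 9 in number, summed to 3501 to 21789 in LPD and 2235 to 16137 in NPD lines. Pdgfra is counted in both the fibroblast and the primitive endoderm list, with values from 98.0 in LPD line 6 to 530 in LPD line 40. Leukocyte markers, 7 in number, summed to 149 to 255 in LPD and 176 to 192 in NPD lines. Among them Ptprc, the pan-leukocyte gene, was at 0.482 to 8.01, whereas Cd79a was at 66.7 to 97.8 and Cd3e at 45.9 to 110. Y-linked Ddx3y was 1110 to 1493 in 8 lines but 174 in LPD line 4 and 7.70 in NPD line 15, so Ddx3y in these 2 lines went against the male label. The median of 334 X-linked genes, as a log2 deviation from the median line, was 0.49 in NPD line 15 but 0.00 in LPD line 4, which lay among the other 8 lines (-0.06 to 0.03) by this measure. The diet differences of B2m and H2-K1 and the counts that moved most are therefore also given without both lines. In bulk RNA, fewer cells of a type and less RNA per cell cannot be told apart.

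The pathway was read unevenly, from well-covered genes for the chains and tapasin to a few reads for Psmb8 and Nlrc5. Level between genes was compared per kb of the longest annotated transcript. On this scale B2m was highest with 485 ± 98.1 (SD, n = 10 lines), and it was followed by Tapbp with 296 ± 92.0, H2-K1 with 249 ± 56.5, Psmb10 with 129 ± 24.3 and H2-D1 with 97.0 ± 17.3. Tap1 reached 32.2 ± 15.7, Psmb9 12.9 ± 3.20, Tap2 6.38 ± 3.69, Psmb8 3.78 ± 2.75 and Nlrc5 0.728 ± 0.694. For reference on the same scale, the pluripotency factor Pou5f1 stood at 17652 and the endoplasmic reticulum chaperones Calr, Pdia3 and Canx, which fold and load class I among many other proteins, at 4993, 3153 and 2127. Each gene was compared with the next lower one by an exact sign-flip permutation test over the 10 lines, 9 tests in all. Tapbp and H2-K1 did not differ beyond the spread (6 of 10 lines, exact p = 0.15). The other 8 neighbours differed, with exact p between 0.00195, the smallest these lines allow, and 0.0273. B2m was above Tapbp in 10 of 10 lines, by 0.75 on the log2 scale. With the mean length of the coding transcripts in place of the longest transcript, Tapbp stood above B2m and H2-D1 above Psmb10.

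**Figure D1:**
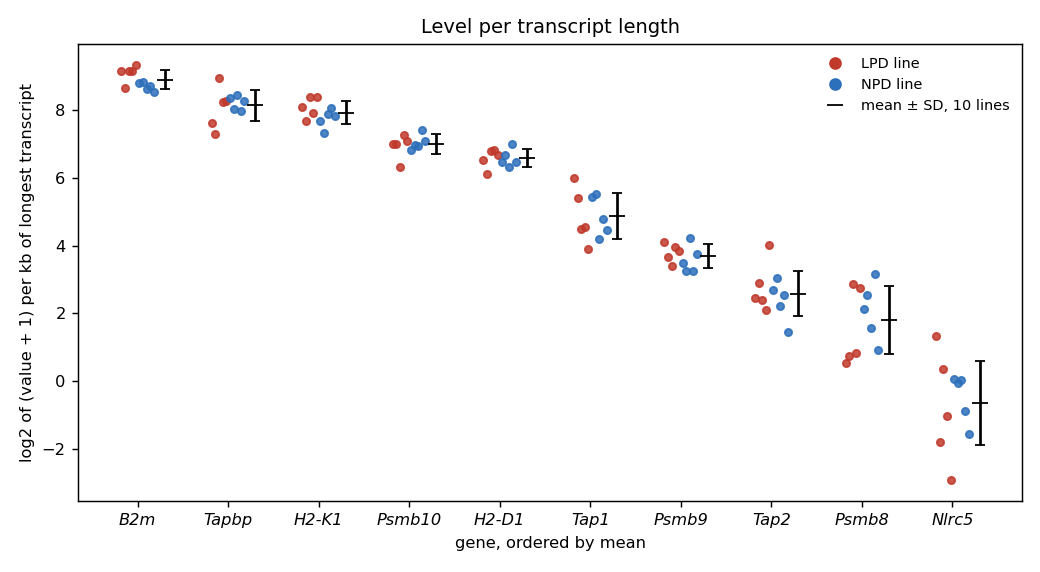
Level of each gene per kb of its longest transcript, as log2 of (value + 1) per kb on the vertical axis, for the 10 genes ordered by mean on the horizontal axis. Points are lines (LPD red, NPD blue) and the bar is the mean ± SD of 10 lines. With the longest transcript as length, B2m is highest at 485 per kb and Nlrc5 lowest at 0.728 per kb.

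B2m, the light chain of every class I molecule, was the member with the largest difference between the diets relative to its spread. Its normalized value was 491, 343, 495, 494 and 557 in LPD lines 1, 4, 6, 20 and 40. In NPD lines 8, 15, 21, 36 and 51 it was 386, 388, 338, 357 and 318. LPD lines 1, 6, 20 and 40 lay above every NPD line, and LPD line 4 lay within the NPD range, so the groups overlapped by that 1 line. LPD lines averaged 476 ± 79.4 and NPD lines 357 ± 30.6 (SD, n = 5 each). The log2 fold change, LPD over NPD, was 0.40 (SE 0.14, 95% interval 0.10 to 0.69) in limma. Its unadjusted limma p was 0.0118 and its Benjamini-Hochberg adjusted p over 14354 genes was 0.839. The exact two-sided permutation test over the 252 assignments of lines gave p = 0.0317. B2m has 1 annotated transcript and shares no 31-base stretch with another gene. Without LPD line 4 the difference was 0.51 (exact p = 0.00794), and without LPD line 4 and NPD line 15 it was 0.54 (exact p = 0.0286). In both cases every remaining LPD line lay above every NPD line. Each p is thus the smallest its lines allow, and exact p from different numbers of lines cannot be compared. Leaving out LPD line 1, 6, 20 or 40 instead gave an exact p of 0.0556 each time, with differences from 0.34 to 0.38, and the exact Mann-Whitney test on all lines also gave p = 0.0556.

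C57BL/6 mice carry H2-K1 and H2-D1 as their classical heavy chain genes, which bind the peptide. Their diet differences are given separately, and whether these differ from each other was not tested. H2-K1 was 513, 381, 630.3, 455 and 629 in LPD lines 1, 4, 6, 20 and 40, and 382, 301, 441, 504 and 427 in NPD lines 8, 15, 21, 36 and 51. LPD lines 1, 6 and 40 lay above every NPD line and the other 2 LPD lines within the NPD range. LPD lines averaged 522 ± 109 and NPD lines 411 ± 75.2 (SD, n = 5 each). The log2 fold change was 0.34 (SE 0.17, 95% interval -0.03 to 0.71), with adjusted p = 0.994 in limma and exact permutation p = 0.103. Without LPD line 4 the exact permutation p of H2-K1 was 0.0397, with a difference of 0.44, and without LPD line 4 and NPD line 15 it was 0.0571. Leaving out any other single line gave an exact permutation p from 0.0714 (without NPD line 36) to 0.222 (without NPD line 15). The differences in these fits ran from 0.23 without NPD line 15 to 0.42 without NPD line 36.

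H2-D1 was 192, 144, 231, 236 and 213 in LPD lines 1, 4, 6, 20 and 40, and 187, 216, 168, 268 and 185 in NPD lines 8, 15, 21, 36 and 51. The groups overlapped, with the lowest value in LPD line 4 and the highest in NPD line 36. The log2 fold change was -0.01 (SE 0.18, 95% interval -0.39 to 0.37), with exact permutation p = 0.944, and its sign turned without LPD line 4 (0.11). Reads of the 2 heavy chains cannot be separated completely, since 22.8% of the 31-base stretches of H2-K1 and 26.7% of those of H2-D1 also occur in other genes, most often in each other.

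**Figure D2:**
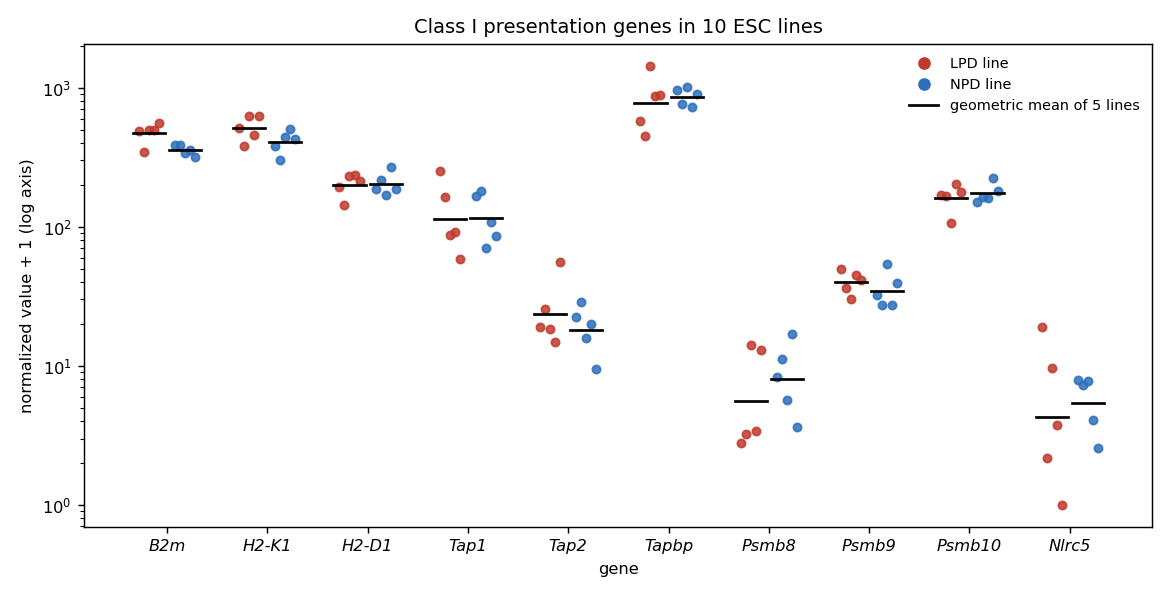
Normalized value + 1 of the 10 genes on a log axis, with LPD lines in red, NPD lines in blue and the geometric mean of 5 lines as a bar. For B2m 4 of 5 LPD lines lie above every NPD line, and for the other genes the groups overlap more widely.

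Among the 8 genes tested with limma, the 3 of peptide transport and loading had the largest SD within diets. Tap1, a chain of the transporter that pumps peptides into the endoplasmic reticulum, was 250.1, 164, 86.1, 90.5 and 57.3 in LPD lines 1, 4, 6, 20 and 40. In NPD lines 8, 15, 21, 36 and 51 it was 167, 180.3, 70.0, 108 and 85.3. Both the highest and the lowest of the 10 lines were LPD lines, 4.36-fold apart. The log2 fold change was -0.02 (SE 0.39, 95% interval -0.85 to 0.82), with exact permutation p = 0.976. Its SD within diets, 0.72 on the log2 scale, was larger than that of 89.5% of the genes tested.

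Tap2, the partner chain of the transporter, was 17.9, 24.7, 17.3, 13.9 and 54.6 in LPD lines 1, 4, 6, 20 and 40 and 21.4, 27.6, 15, 18.9 and 8.45 in NPD lines 8, 15, 21, 36 and 51. Only LPD line 40 stood above the NPD range. The log2 fold change was 0.39 (SE 0.42, 95% interval -0.53 to 1.30), with exact permutation p = 0.429, and the difference was 0.08 without LPD line 40. These values rest on 8.56 to 36.4 read equivalents per line.

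Tapbp encodes tapasin, which holds the empty heavy chain at the transporter. It was 572, 453, 1435, 870.3 and 893 in LPD lines 1, 4, 6, 20 and 40 and 956, 759, 1007, 729.9 and 903 in NPD lines 8, 15, 21, 36 and 51. LPD lines spread both above and below the NPD lines, with LPD line 6 highest and LPD lines 1 and 4 lowest. The SD was 381 in LPD and 122 in NPD lines, a difference that was not tested. The log2 fold change was -0.15 (SE 0.25, 95% interval -0.69 to 0.39), with exact permutation p = 0.667, and it was 0.05 without LPD line 4. LPD line 6 was also the LPD line with the highest fibroblast marker sum, 5037 against 1261 to 1655 in the other LPD lines. It had the highest trophectoderm marker sum as well, 10414 against 3350 to 4929 in those lines. Most of that sum was Krt8 (4577) and Krt18 (3053). Gata3 and Eomes were also highest among the LPD lines in line 6, whereas Tfap2c, Hand1, Cdx2 and Elf5 were not. NPD line 15, with the highest fibroblast sum of all lines (8502), had a Tapbp value of 759, second lowest of the NPD lines. The part of these markers in the Tapbp value was not tested.

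The immunoproteasome subunits were far below their constitutive counterparts. Psmb8, the inducible subunit that replaces Psmb5, was 1.76, 2.22, 13.0, 2.40 and 11.9 in LPD lines 1, 4, 6, 20 and 40 and 7.37, 10.1, 4.65, 16 and 2.63 in NPD lines 8, 15, 21, 36 and 51. This corresponds to 0.769 to 22 read equivalents, its mean was under the minimum of 10 for the genome-wide test, and the exact permutation p was 0.413. Psmb9, the inducible subunit that replaces Psmb6, was 48.8, 35.2, 29.4, 44.0 and 40.8 in LPD lines 1, 4, 6, 20 and 40 and 31.5, 26.4, 52.6, 26.2 and 38.2 in NPD lines 8, 15, 21, 36 and 51. The groups overlapped, with a log2 fold change of 0.20 (SE 0.27, 95% interval -0.38 to 0.78) and exact permutation p = 0.381. Psmb10, the inducible subunit that replaces Psmb7, was 168, 166, 105, 202 and 177 in LPD lines 1, 4, 6, 20 and 40 and 149, 162, 159, 225 and 179 in NPD lines 8, 15, 21, 36 and 51. LPD line 6 was lowest and the other lines overlapped, with a log2 fold change of -0.11 (SE 0.19, 95% interval -0.52 to 0.31) and exact permutation p = 0.643.

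Each subunit was set against the constitutive subunit it replaces, per kb of the longest transcript and in percent. Psmb8 stood at 0.0192% to 0.182% of Psmb5 over the 10 lines, and Psmb9 at 0.194% to 0.348% of Psmb6. Psmb10 stood higher on this scale, at 4.71% to 8.89% of Psmb7. These shares depend on the lengths used. The longest transcript is 2.849 kb for Psmb7 but 0.899 kb for Psmb5 and 0.966 kb for Psmb6. That of Psmb9 is 2884 bp, against a mean of 771 bp for its coding transcripts. Shares with other lengths were not computed. The constitutive subunits themselves reached 5007 (Psmb5), 5006 (Psmb6) and 1858 (Psmb7) per kb. The mean share of Psmb8 was 0.0634% ± 0.0581 in LPD and 0.0913% ± 0.0626 in NPD lines (SD, n = 5 each). For Psmb9 it was 0.270% ± 0.0471 and 0.244% ± 0.0562, and for Psmb10 6.68% ± 1.25 and 7.23% ± 1.05. The exact permutation p for the diet difference of the 3 log2 ratios was 0.365, 0.405 and 0.508 in this order.

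**Figure D3:**
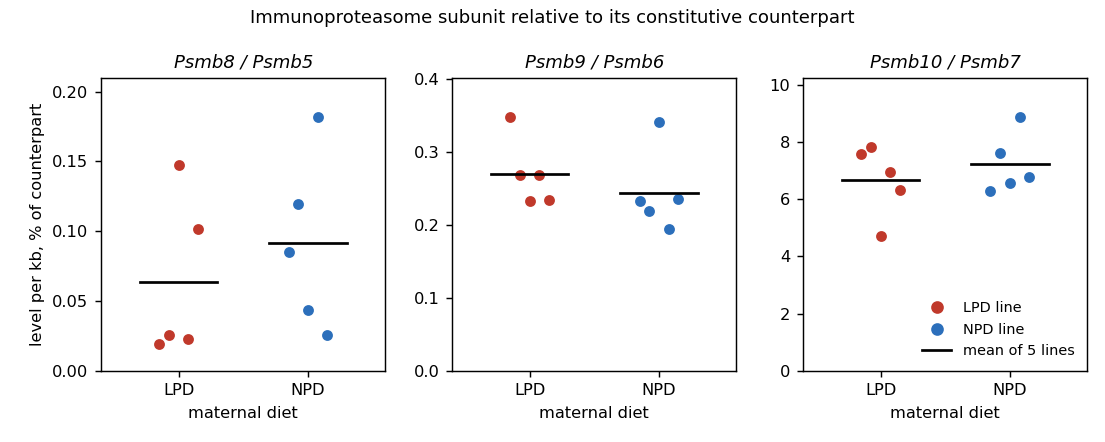
Level of each immunoproteasome subunit in percent of its constitutive counterpart, by maternal diet. Both levels are per kb of the longest transcript. Vertical axes start at 0 and each panel has its own scale. Points are lines and bars are means of 5 lines. Psmb10 lies at 4.71% to 8.89% of Psmb7, whereas Psmb8 reaches at most 0.182% of Psmb5 and Psmb9 at most 0.348% of Psmb6.

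Nlrc5, the class I transactivator, was close to the limit of detection. Its value was 18.0, 1.18, 8.72, 2.72 and 0 in LPD lines 1, 4, 6, 20 and 40 and 6.88, 6.24, 6.73, 3.09 and 1.58 in NPD lines 8, 15, 21, 36 and 51. LPD lines held both the highest and the lowest value. The highest corresponds to 23.7 read equivalents, and in LPD line 40 a count of 0 allows a value of up to 4.74 (3 reads, counting error only). The exact permutation p was 0.714.

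Over the pathway, 8 of the 10 genes passed the minimum mean of 10 and were tested with limma, 4 of them higher and 4 lower in LPD. Without LPD line 4 and NPD line 15, 7 were higher and 1 lower, with log2 fold changes of 0.016 for Tap1 and 0.0019 for Tapbp among the 7, beside 7220 higher and 7077 lower of all genes. B2m was the only one under an unadjusted p of 0.05, 1 of 8 tested genes, against 5.02% of the 14354 genes in either direction, 2.84% higher and 2.18% lower in LPD. At an adjusted p under 0.1 it was 0 of 8, against 0.0% of all genes, and at an adjusted p under 0.05 also 0, against 0.0%. None of the 8 genes had groups without overlap, against 1.02% of all genes. The median log2 fold change was 0.10 over the 8 genes and 0.00 over all genes tested. The median SD within diets was 0.33 over the 8 genes and 0.27 over all genes. Where the mean reached 100, it was 0.30 over 6 of these genes and 0.21 over all such genes. The other 84 genes of the chromosome 17 interval are a neighbourhood for the 7 genes there. Of these, 60 were tested, 26 were higher and 34 lower in LPD, and the median log2 fold change was -0.03.

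**Figure D4:**
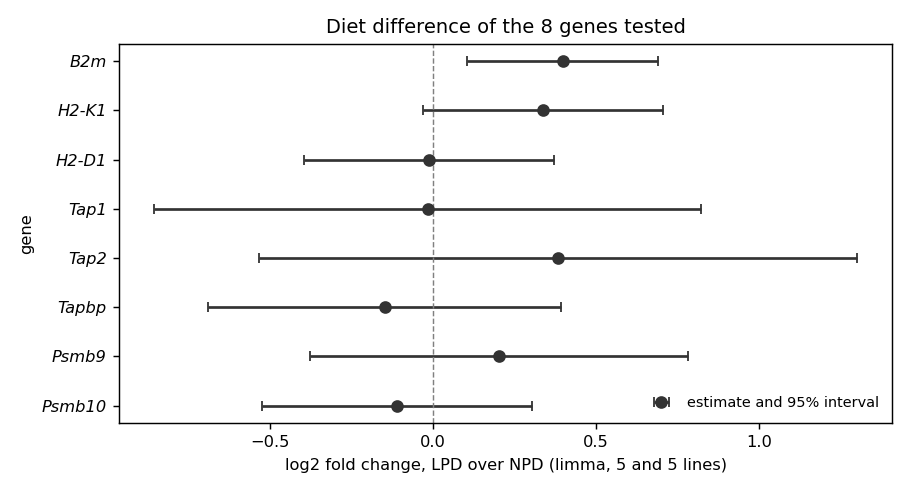
Log2 fold change, LPD over NPD, on the horizontal axis with its 95% interval (limma, 5 and 5 lines) for the 8 genes tested. The interval of B2m, 0.10 to 0.69, is the only one that leaves out 0, before adjustment over 14354 genes.

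Whether the genes rose and fell together was examined across the 10 lines. Named lines left out of an r here are those farthest from the median of the gene named first. Lines extreme only in the gene named second stay in. Over the 45 pairs, Pearson's r of the log2 values was positive in 23 and negative in 22, with a median of 0.02. No pair passed adjustment over the 45 (lowest permutation p adjusted by Benjamini-Hochberg, 0.714; for Spearman's rho 0 pairs), and 1 pair was under an unadjusted permutation p of 0.05. That pair was Psmb8 and Psmb9 (r = -0.67, permutation p = 0.0399; rho = -0.66, permutation p = 0.0436), with r = -0.48 without LPD line 1 and NPD line 36. B2m and H2-K1 had the highest r, 0.62 (permutation p = 0.0576; rho = 0.61, permutation p = 0.0667), which was 0.26 without LPD lines 6 and 40 and 0.39 within diets. H2-K1 and H2-D1, which share sequence, had r = 0.38 (permutation p = 0.279; rho = 0.47, permutation p = 0.176), 0.56 without LPD line 6 and NPD line 15. Tap1 and Psmb9, which start within the same stretch, had r = -0.21 (permutation p = 0.559; rho = -0.30, permutation p = 0.408), -0.51 without LPD line 1 and NPD line 15. H2-K1 and Nlrc5 had r = -0.13 (permutation p = 0.732; rho = 0.20, permutation p = 0.581), -0.25 without LPD line 6 and NPD line 15. Each of these points is 1 library, and the libraries differ in depth.

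**Figure D5:**
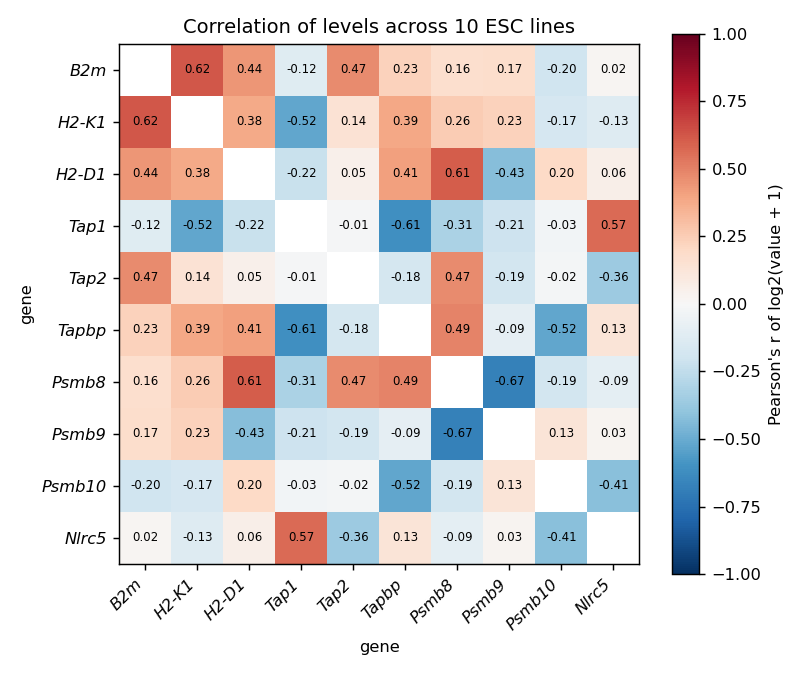
Pearson's r of log2(value + 1) across the 10 lines for each pair of genes, from blue (negative) to red (positive). The range is -0.67 for Psmb8 and Psmb9 to 0.62 for B2m and H2-K1, with no block of high values.

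Among 10449 other genes with a mean of at least 100, those most like the mean standardized level of the 8 tested genes over the 10 lines were named by r. They were Sirt2 (r = 0.94), Cpeb1 (r = 0.86), Ndufaf1 (r = 0.85), Cct4 (r = 0.84) and Emc7 (r = 0.84). These are descriptions of the highest of many values, and none of the 5 lies on chromosome 17.

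Signals and factors that act on the pathway were followed by gene lists, with no gene under an adjusted p of 0.1 in any list. In the list of interferon receptors, kinases and factors, 16 of 17 genes were tested, 8 higher and 8 lower in LPD. Stat2, a subunit of the factor that binds interferon-stimulated response elements, was 628, 437, 408, 294 and 515 in LPD lines 1, 4, 6, 20 and 40 and 609, 657, 645, 638 and 557 in NPD lines 8, 15, 21, 36 and 51. All LPD lines other than line 1 lay below every NPD line. Its log2 fold change was -0.49 (SE 0.17; limma unadjusted p = 0.0135, adjusted p = 0.839), and -0.46 without LPD line 4 and NPD line 15. Irf3, which induces type I interferon, had a log2 fold change of -0.33 (SE 0.13; limma unadjusted p = 0.0298, adjusted p = 0.952), and Irf9, the DNA-binding partner of Stat2, of -0.31 (SE 0.17; adjusted p = 0.994 in limma). That of Irf3 was -0.28 without LPD line 4 and NPD line 15 (limma unadjusted p = 0.0687). Socs3, a feedback inhibitor of cytokine signalling, had the highest mean of the list, with values of 2223 to 4268.

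Of 30 interferon-induced effector genes, 19 were tested, 5 higher and 14 lower in LPD (7 and 12 without LPD line 4 and NPD line 15), with a median log2 fold change of -0.16 against 0.00 over all genes. Their summed value was 7701 to 8166 in LPD and 7284 to 9792 in NPD lines, most of it in few genes such as Ifitm3 with 2219 to 3841. Ifit3, Usp18 and Rtp4 were at 0 in at least 5 lines. Cxcl10, a chemokine gene, was 18.1, 21.1, 23.2, 23.6 and 23.1 in LPD lines 1, 4, 6, 20 and 40 and 3.57, 17.6, 13.1, 14.6 and 10.9 in NPD lines 8, 15, 21, 36 and 51. The lowest LPD line, 18.1, lay above the highest NPD line, 17.6, by less than the value of 1 read in these lines (0.759 and 0.758). The groups did not overlap, with a log2 fold change of 0.95 (SE 0.40; limma unadjusted p = 0.0324, adjusted p = 0.953), and 0.61 without NPD line 8. Oas1a, an antiviral sensor gene, went the other way at 23 ± 5.06 for LPD against 36.1 ± 9.04 for NPD (SD, n = 5 each) and a log2 fold change of -0.63 (SE 0.28; limma unadjusted p = 0.0419, adjusted p = 0.982). That of Oas1a was -0.52 without LPD line 4 and NPD line 15, the line with the highest value (limma unadjusted p = 0.127). Bst2, which tethers budding virus, had a log2 fold change of 0.27 (SE 0.14; adjusted p = 0.994 in limma).

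Of 10 factors of the class I promoter complex, all were tested, 4 higher and 6 lower (2 and 8 without LPD line 4 and NPD line 15), with the 3 smallest p in the CCAAT-binding subunits Nfyb (log2 fold change -0.10), Nfya (-0.14) and Nfyc (0.15), and 0 under an unadjusted limma p of 0.05. Ep300, a histone acetyltransferase, had the highest mean of this list, with 2015 to 3102. Of 10 other peptide loading, trimming and chaperone genes, 8 were higher and 2 lower, 0 under an unadjusted limma p of 0.05. Erap1, which trims peptides in the endoplasmic reticulum, spread from 8.93 in LPD line 4 to 152 in LPD line 6 (log2 fold change -1.08, SE 0.60, adjusted p = 0.994 in limma), and its log2 fold change was -0.63 without LPD line 4, -1.61 without LPD line 6 and -0.57 without LPD line 4 and NPD line 15. Calr was the highest of that list with 9335 to 12112, Spcs1 differed by 0.19 and the chaperone gene Hspa5 by 0.15 on the log2 scale. Of 9 proteasome activator and assembly genes, 3 were higher and 6 lower. Psme2, a subunit of the interferon-inducible activator, had a log2 fold change of -0.16, Psmg3 of -0.19 and Psmg2 of -0.10, and Psme4 had the highest mean with 4030 to 5193. Psmb5, Psmb6 and Psmb7 differed by 0.06, 0.05 and 0.02 (adjusted p at least 0.994 in limma), and the sign of Psmb7 turned when lines were rescaled to the same total or quantile-normalized.

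Of 19 non-classical class I and class I-like genes, 14 were tested, 4 higher and 10 lower, with a median of -0.17. That list also holds H2-Ke6, which is named for its place in the H2 complex and encodes a dehydrogenase rather than a heavy chain. H2-M5 had the highest mean of the list and was 427 ± 83.0 in LPD and 567 ± 146 in NPD (SD, n = 5 each; log2 fold change -0.39, SE 0.18, limma unadjusted p = 0.0472, adjusted p = 0.987). Without NPD line 36 its log2 fold change was -0.26. Leaving out LPD line 4 and NPD line 15, 13 genes of this list were tested, 5 higher and 8 lower. H2-Bl had a log2 fold change of -0.75 (SE 0.39) and H2-Q4 of 0.53 (SE 0.32), both with adjusted p = 0.994 in limma. Among 9 class II genes, 5 were tested, 4 higher and 1 lower. Cd74, the invariant chain, had a log2 fold change of 0.59 (SE 0.31), H2-Eb1, highest of the list with 215 to 632, of 0.18 and H2-DMa of -0.28, each with adjusted p = 0.994 in limma. Polycomb repressive complex 2, a writer of repressive histone marks known to silence class I genes in some cells, had 5 of 8 genes higher and 3 lower (3 and 5 without LPD line 4 and NPD line 15), with Ezh1 at -0.18, Mtf2 at 0.06 and Ezh2 at 0.04, and Rbbp4 highest with 7524 to 9908.

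Markers of other cells in the cultures were set beside these values. All 9 primitive endoderm markers had a positive log2 fold change, with a median of 0.49 and 0 under an unadjusted limma p of 0.05, although the mean values of Dab2 and Gata6 were nearly equal (823 in LPD and 826 in NPD, and 321 in both). This median was 0.22 without LPD line 1, 0.32 without LPD line 40, 0.85 without LPD line 6, 0.75 without NPD line 36 and 0.044 without NPD line 15. With LPD line 4 and NPD line 15 both left out, 5 of the 9 were higher and 4 lower. Of 13 fibroblast markers tested, 4 were higher and 9 lower (median -0.41), again with 0 under 0.05. This median was -0.79 without LPD line 6, -0.73 without NPD line 51, -0.61 without NPD line 21, -0.21 without LPD line 20, -0.19 without LPD line 40 and 0.062 without NPD line 15. When LPD line 4 and NPD line 15 were left out, 12 fibroblast markers were tested, 6 higher and 6 lower. Of 7 trophectoderm markers tested 5 were higher, of 7 epiblast and early germ layer markers 2 were higher, of 5 leukocyte markers 3 were higher, and of 10 ESC markers 4 were higher. Otx2, an epiblast factor, was the only marker of all these lists under an unadjusted limma p of 0.05, against 5.02% of the 14354 genes tested. Its unadjusted limma p was 0.0310 (log2 fold change -0.85, SE 0.35, adjusted p = 0.952). The log2 difference of Otx2 was -0.79 without LPD line 4 and NPD line 15 (limma unadjusted p = 0.0771). B2m was lowest among the LPD lines in line 4, whose primitive endoderm sum of 13038 and fibroblast sum of 1655 lay inside the range of the other LPD lines. The part of these cells in the values above was not tested.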

How the data were processed

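RNA from 10 ESC lines, 5 LPD and 5 NPD, was analysed. The authors trimmed adapters with cutadapt, removed low-quality reads and quantified transcripts of GRCm38 with Salmon; for their own tests they used Sleuth 0.30.0. As deposited, each value is a normalized signal of 1 gene in 1 line, an estimated count that the authors scaled with DESeq2 according to the name of the table. How transcripts were summed to genes is not given in the sources used here. All 10 columns were mapped by title.

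Low values were not whole reads for enough genes (67.5% to 73.8% of them within a tolerance of 0.15), so no count model was used. In genes with 1 transcript 92.1% to 99.6% were whole, which gave the value of 1 read and the read equivalents of each line. Intervals and limits from counts cover counting error only. Values were taken as log2(value + 1), a scale that understates changes of low genes. Genes whose mean reached 10, 14354 in number, were fitted with limma 3.58.1 in R 4.3.3 (mean-variance trend, no covariate), tested on simulated data, and adjusted by Benjamini-Hochberg, with thresholds of 0.1 and 0.05. Members and ratios were also tested by exact two-sided permutation, correlations with 100000 permutations. The other steps ran in Python 3.11.15 (scipy 1.17.1, numpy 2.4.6, matplotlib 3.10.9, pandas 2.3.3). Of 20206 genes, 19891 were matched to GENCODE M21, which gave positions and lengths. Promoters are from RefSeq.

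The 10 members and the 19 lists, 4 of them subsets of the members, were chosen with earlier results of these data known, and the motifs with the promoter sequences in view. Named were all members with each line's value, the gene of highest mean and up to 3 tested genes of smallest p in each related list (for marker lists only genes the text turns on), the constitutive subunits, Ddx3y and the 5 genes most like the members. Alternatives were pseudocounts of 0.1, 0.5 and 10, no filter, a mean of at least 100, rescaling to equal totals, quantile normalization, limma without trend, robust or with array weights, an exact Mann-Whitney test, the first residual component as a covariate, other transcript lengths, and leaving out single lines or LPD line 4 with NPD line 15. Depth as a covariate was added after seeing the data.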

Additional observations from a re-analysis of the deposited data

Results flagged for a closer look

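B2m in LPD line 4 stood apart from its group. Its value was 343 there, against 491 to 557 in the other 4 LPD lines, and the gap to the nearest line was 0.740 of the whole LPD range on the log2 scale, past the limit of 0.71 for 5 lines. It was the only group of 20 examined (10 genes in 2 diets) that passed, and chance is expected to give 1 such group. LPD line 4 had the lowest depth, about 5846660 read equivalents, with 119 of them on B2m, and a low Ddx3y of 174. The part of either in the B2m value was not tested.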

How the results depend on the processing

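No paired analysis was possible because, by the study's methods, the lines came from different mothers, who were assigned at random to either diet. In none of 23 alternatives did 1 of the 8 genes tested reach an adjusted limma p under 0.1 (lowest 0.560, for B2m), and B2m and H2-K1 stayed higher in LPD in all of them (log2 fold change 0.34 to 0.55 and 0.23 to 0.44). The exact permutation p of B2m ran from 0.00794 to 0.0556 and was 0.0556 by the exact Mann-Whitney test. Over all genes, 0 passed an adjusted p of 0.05 or 0.1, against 1 at 0.1 with array weights, and leaving out 1 line gave 0 to 17 at 0.05 and 0 to 40 at 0.1, both highest without LPD line 40. Members under an unadjusted p of 0.05 numbered 2 of 8 without LPD line 4 and NPD line 15 (4.27% of all genes there), and 1 to 2 when 1 line was left out. There were 2, B2m and H2-K1, without LPD line 4 (5.28% of all genes) or NPD line 36 (3.83%). Genes of the related lists under it numbered 6, against 14 with the first residual component as a covariate and 2 to 11 when 1 line was left out (11 without LPD line 6). Over all genes the share under it was 5.02%, 6.05% with that covariate and 5.40% without LPD line 6. The numbers tested are given with each list above, and these counts were not tested against that share. The median log2 fold change of the members was 0.10, against -0.013 without a filter, -0.013 with a mean of at least 100 and 0.21 with array weights.

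Several small differences changed sign, and the cause was not tested. With depth as a covariate the log2 fold change of H2-D1 was 0.17, of Tap1 0.028 and of Tapbp 0.0060. Without LPD line 4 and NPD line 15 it was 0.13 for H2-D1, 0.016 for Tap1, 0.0019 for Tapbp and 0.024 for Nlrc5. With array weights it was 0.27 for Tap1, -0.0039 for Psmb6, -0.043 for Psmb7 and -0.0035 for Ezh2, and with quantile normalization -0.026 for Psmb7 and -0.0085 for Ezh2. Rescaling to the same total gave -0.019 for Psmb7. With a pseudocount of 10, Nlrc5 gave 0.020 and its r with H2-K1 was 0.022. Leaving out 1 line gave -0.077 to 0.11 for H2-D1, -0.30 to 0.23 for Tap1, -0.37 to 0.049 for Tapbp, -0.19 to 0.043 for Psmb10, -0.86 to 0.20 for Nlrc5, -0.014 to 0.10 for Psmb5, -0.011 to 0.11 for Psmb6, -0.049 to 0.065 for Psmb7, -0.15 to 0.012 for Psmg2, -0.018 to 0.096 for Ezh2 and -0.32 to 0.29 for the r of H2-K1 and Nlrc5. The order of levels per length was the same in every alternative other than the mean coding transcript length, which placed Tapbp above B2m and H2-D1 above Psmb10, and 6 to 9 of its 9 neighbours differed. Psmb8, Nlrc5 and Tap2 rested on few reads, down to 0.769, 0 and 8.56 read equivalents in a line.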
